A study of Mus musculus with 30 samples.

Results

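The expression of 29 genes of cholesterol and fatty acid synthesis was followed in the small bowel muscularis externa (ME) of mice after intestinal manipulation (IM). They were picked by name for their known roles out of 28586 genes listed for ME RNA or glial *RiboTag* RNA. The members comprise 6 genes of the mevalonate steps (*Hmgcs1*, *Mvk*, *Pmvk*, *Mvd*, *Idi1*, *Fdps*), 9 genes of the squalene and sterol steps (*Fdft1*, *Sqle*, *Lss*, *Cyp51*, *Msmo1*, *Nsdhl*, *Hsd17b7*, *Sc5d*, *Dhcr7*), 5 genes of sterol sensing and carriage (*Srebf1*, *Srebf2*, *Insig1*, *Insig2*, *Stard4*), 7 genes of fatty acid synthesis (*Acly*, *Acss2*, *Acaca*, *Fasn*, *Elovl6*, *Scd1*, *Scd2*) and 2 genes of cholesterol efflux (*Abca1*, *Abcg1*). All 29 members passed the filter on low counts in each of the 9 comparisons below.

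The ME is the muscle wall of the gut with the nerve plexus and glia embedded in it, and IM is a surgical model of postoperative ileus in which the exposed small bowel is rolled mechanically. In *RiboTag* mice, Cre recombinase switches on an HA-tagged RPL22, a protein of the large ribosomal subunit, and an antibody to HA then pulls down the mRNA that is being translated in the Cre-expressing cells. RNA was sequenced from this pulldown (IP) and from total ME lysate (input), from naïve mice and from mice killed 3 h (IM3h), 24 h (IM24h) or 72 h (IM72h) after surgery. The study methods name male mice of 10 to 12 weeks for IM and tamoxifen for 3 days, ending 1 week before the experiments, to switch on the *Sox10*-driven Cre.

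Every group carried the tagged allele B6N.129 Rpl22tm1.1Psam/J, and the groups differed in the Cre line. The 3 naïve and 3 IM3h ME libraries came from crosses with B6.Cg-Tg73.12Mvs/J(Gfap-cre), whose Cre follows the promoter of the astroglial gene *Gfap*. The 4 IM24h and 4 IM72h ME libraries and all *RiboTag* IP libraries came from crosses with B6 Tg(Sox10-icre/ERT2)388Wdr/J, whose inducible Cre follows *Sox10*, a transcription factor of neural crest cells that marks enteric glia and also Schwann cells. Of *RiboTag* libraries, 3 naïve ones were in the tables, beside 4 at each time after IM, where the labels list 4 naïve samples. The naïve ME libraries thus share the line of the IM3h ME libraries only. In the comparisons of IM24h and IM72h with naïve ME, and of the fractions with each other, effects of the mouse line cannot be told apart from those of IM or of the fraction.

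Cholesterol is built from acetyl-CoA through mevalonate, isoprenoid units, squalene and lanosterol, and fatty acids are built from the same acetyl-CoA through malonyl-CoA. Both routes are driven by the SREBP transcription factors, which are held in the endoplasmic reticulum by INSIG proteins when sterols are plentiful and released to the nucleus when sterols run low. Fatty acid synthesis is most active in liver and fat tissue, while glial cells, above all those that make myelin, are known for their cholesterol synthesis.

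To show the sequence through which SREBP factors act on such genes, RefSeq promoter windows of build GRCm38.p6 were searched on both strands for the sterol regulatory element TCACNCCAC and for CCAAT and GGGCGG, the core letters bound by NF-Y and SP1, with matches of different motifs allowed to overlap. Windows of 250 bases before to 50 bases after the gene start were at hand for 22 of the 29 members, in 29 windows. *Hmgcs1*, which encodes the HMG-CoA synthase at the entry of the mevalonate route, was the only one of these 22 members with TCACNCCAC, against 1.24% of all 32851 windows. A CCAAT stood in windows of 19 members and in 69.0% of member windows, against 37.4% of all windows, and GGGCGG in windows of 18 members and in 72.4% of member windows, against 35.7% of all. These are matches of letters, not measured binding sites. The *Hmgcs1* window lies on the plus strand at chr13:119690101-119690400 and is shown for its element, with TCACCCCAC at bases 114 to 122 and 4 CCAAT boxes read on the other strand (ATTGG) in capitals.
*Hmgcs1* promoter window: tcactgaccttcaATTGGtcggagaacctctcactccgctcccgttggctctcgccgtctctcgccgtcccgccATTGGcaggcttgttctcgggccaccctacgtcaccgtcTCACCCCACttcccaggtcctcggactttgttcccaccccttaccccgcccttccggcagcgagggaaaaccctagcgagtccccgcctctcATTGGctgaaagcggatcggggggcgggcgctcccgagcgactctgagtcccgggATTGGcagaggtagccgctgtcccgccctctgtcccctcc

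Levels are given as CPM, counts scaled to a common library size, by TMM, in the order of library names within a group. These 3′ end counts are not divided by gene length, so levels are compared between groups and not between genes. Library totals ran from 6603170 to 12866062 counts in the ME and from 3010306 to 7899493 in *RiboTag* RNA. Counts of 3 genes that overlap rRNA made up 16.1% to 33.5% of a naïve ME library, 24.1% to 25.2% at IM3h, 1.34% to 6.52% at IM24h and 2.399% to 3.79% at IM72h. In the ME this share was thus lower at IM24h and IM72h than in naïve libraries, and with the 3 genes left out of the fit the same members were called at both times. In *RiboTag* RNA these genes made up 2.03% to 14.0% of a naïve or IM3h library, 22.3% to 59.4% at IM24h and 58.1% to 80.2% at IM72h. Summed levels of 5 glial markers were 111 to 128 CPM in naïve ME and 1535 to 1847 CPM in naïve *RiboTag* RNA, and all 5 were higher in the latter. Smooth muscle markers were still present in naïve *RiboTag* RNA, with 3733 to 5613 CPM over 4 genes against 18279 to 19082 CPM in naïve ME. *RiboTag* IM72h library 2 stood apart, with a glial marker sum of 140.3 CPM where the other 3 had 954 to 1453 CPM and a smooth muscle sum of 6188 CPM where they had 1677 to 2402 CPM. The study counts the replicates of these data as mice, so each library is taken as 1 mouse, and p-values measure the spread between them.

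Relative to naïve mice, the number of members called (edgeR, adjusted p under 0.05 over all genes tested) was highest in the ME at IM72h, where the shares of all genes called were highest as well. In the ME at IM3h, 2 members were higher and 3 lower, where 19.3% and 13.4% of all 15333 genes tested were called in these directions. At IM24h, 0 members were higher against 15.6% of all genes, and 11 were lower against 13.4%. At this time 3 members were higher at an unadjusted p under 0.05, which 21.4% of all genes passed, and DESeq2 called 0. The 11 lower members stand above the share over all genes, while the counts at IM3h do not. Without naïve library 3, 7 members were lower at IM24h, with *Acss2*, *Mvd*, *Hmgcs1* and *Fdps* lost, and without IM24h library 4, 3 were higher.

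At IM72h, 5 members were higher in the ME against 29.3% of all genes and 16 were lower against 28.3%. The median log2 fold change of the members was 0.01 at IM3h, -0.37 at IM24h and -0.55 at IM72h, against 0.00, 0.02 and 0.02 over all genes. With libraries scaled by their totals alone, the median of all genes itself shifted to -0.26, 0.66 and 0.62 at these times, and that of the members to -0.27, 0.24 and 0.05. A change of scale moves all genes by nearly the same amount, so it does not test the distance of the members from all genes. The calls split differently on this scale. There were 0 higher and 7 lower members at IM3h, where 11.4% and 22.1% of all genes were called, then 9 against 4 a day after IM, where 38.5% and 4.41% were, and 9 against 7 at the last time, where 51.3% and 11.8% were. Those that kept their call at IM72h were *Abcg1*, *Cyp51*, *Dhcr7*, *Msmo1* and *Mvk* above naïve ME and *Acaca*, *Acss2*, *Fasn*, *Hmgcs1*, *Insig1*, *Scd1* and *Scd2* below it.

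In *RiboTag* RNA the members called at IM3h were mostly higher. There were 6 higher members against 8.86% of all 16053 genes tested, and 1 lower member against 4.44%. At IM24h, 0 members were called in either direction, against 0.366% of all genes higher and 0.131% lower. At an unadjusted p under 0.05, 0 members were higher where 7.14% of all genes were, and 3 were lower (*Fasn*, *Scd1*, *Scd2*) where 6.03% were, and DESeq2 called 0 higher and 2 lower (*Fasn*, *Scd1*). At IM72h, 0 members were higher against 1.05% of all genes, also at an unadjusted p under 0.05, which 3.12% of all genes passed, and by DESeq2, while 4 were lower against 15.1%. The calls at IM72h rest on counts near 0.

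**Figure D1:**
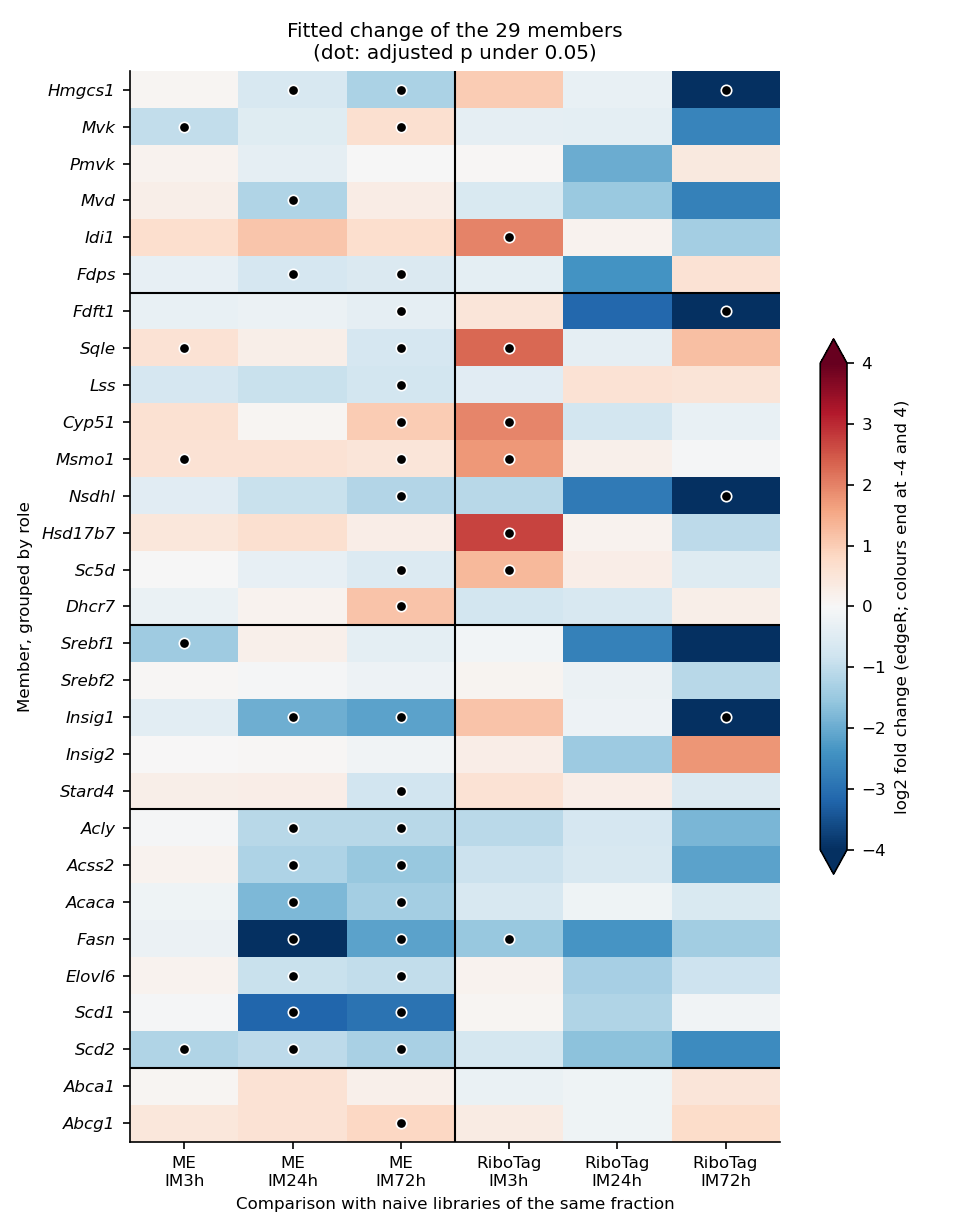
Heat map of the log2 fold change against naïve mice for the 29 members (lines, ordered by role) in 6 comparisons (columns: ME and *RiboTag* RNA at IM3h, IM24h and IM72h). Colours end at -4 and 4, a dot marks an adjusted p under 0.05 by edgeR, and the 7 fatty acid genes carry a dot in the ME at both IM24h and IM72h.

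In the ME at IM24h, *Fasn* and *Scd1* of fatty acid synthesis had the largest log2 fold changes among the members. All 7 genes of this route were lower at IM24h and again at IM72h. Their median log2 fold change was -1.24 and then -1.35, and each kept its negative sign when libraries were scaled by their totals alone, with 3 (*Acaca*, *Fasn*, *Scd1*) and 5 of them still called. At IM3h the same 7 had a median of -0.04, and only *Scd2* was called. Summed over the 7 genes, the level was 1633 to 2071 CPM in naïve ME, 1160.4 to 2226 at IM3h, 325 to 392 at IM24h and 370.1 to 499 at IM72h.

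*Fasn*, the fatty acid synthase that makes palmitate (chr11:120805846-120824547, minus strand, mm10), had levels of 302, 208 and 379 CPM in naïve ME and 354, 209.7 and 159 CPM at IM3h. At IM24h its levels were 12.998, 10.2, 18.9 and 29.3 CPM, and at IM72h 52.5, 71.7, 72.01 and 79.4 CPM. The naïve and IM3h libraries overlapped, all 4 IM24h libraries lay far below both, and the 4 IM72h libraries lay between. The log2 fold change against naïve ME was -4.06 ± 0.36 (SE), adjusted p = 8.95e-05 at IM24h and -2.14 ± 0.20 (SE), adjusted p = 8.36e-06 at IM72h. Between IM24h and IM72h, 2 groups of the same mouse line, *Fasn* rose by 1.92 ± 0.29 (SE), adjusted p = 0.000508, and it was the only fatty acid gene called there.

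*Scd1*, the stearoyl-CoA desaturase that makes oleate (chr19:44394455-44407879, minus strand), had 1292, 1034 and 1014 CPM in naïve ME and 1401, 1024 and 706 CPM at IM3h. It had 119.6, 152, 149.7 and 70.5 CPM at IM24h and 101, 139, 146 and 205 CPM at IM72h, below every naïve library. The log2 fold change was -3.18 ± 0.26 (SE), adjusted p = 6.09e-05 at IM24h and -2.94 ± 0.21 (SE), adjusted p = 1.5e-06 at IM72h. *Acaca*, the acetyl-CoA carboxylase that supplies malonyl-CoA (chr11:84129672-84401651, plus strand), went from 75.1, 74.9 and 92.98 CPM in naïve ME to 26.6, 18.3, 22.9 and 24.8 CPM at IM24h, a log2 fold change of -1.81 ± 0.18 (SE), adjusted p = 0.00014. At IM72h it had 23.4, 33.6, 36.01 and 37.1 CPM and a log2 fold change of -1.35 ± 0.16 (SE), adjusted p = 4.7e-05, again with no overlap with naïve libraries.

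The 2 enzymes that supply acetyl-CoA fell as well. *Acss2*, which makes it from acetate, had 21.6, 17.2 and 30.3 CPM in naïve ME, 14.03, 5.80, 9.20 and 10.3 CPM at IM24h and 8.07, 7.98, 8.91 and 8.52 CPM at IM72h, with log2 fold changes of -1.24 ± 0.31 (SE), adjusted p = 0.0144 and -1.502 ± 0.19 (SE), adjusted p = 6.13e-05. *Acly*, which makes it from citrate, had 108, 86.3 and 169 CPM in naïve ME, 63.9, 47.3, 62.4 and 54.2 CPM at IM24h and 63.6, 49.5, 57.1 and 58.9 CPM at IM72h, with log2 fold changes of -1.10, adjusted p = 0.00569 and -1.12, adjusted p = 0.000637. For both genes the naïve libraries spread widely and still lay above all later ones. *Elovl6*, which elongates palmitate to stearate, had 128, 85.5 and 123 CPM in naïve ME, 56.4 to 70.0 CPM at IM24h and 54.5 to 59.3 CPM at IM72h, with log2 fold changes of -0.90, adjusted p = 0.00441 and -0.999, adjusted p = 0.000125.

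*Scd2*, a second desaturase (chr19:44293674-44306864, plus strand), was the 1 fatty acid gene already lower at IM3h. Its levels were 145, 127 and 174 CPM in naïve ME, 74.8, 72.6 and 40.2 CPM at IM3h, 76.8, 70.6, 59.1 and 79.6 CPM at IM24h and 64.3, 57.7, 67.7 and 55.8 CPM at IM72h. Every library after IM lay below every naïve one. The log2 fold change was -1.20 ± 0.22 (SE), adjusted p = 0.00243 at IM3h, within the *Gfap*-cre line, -1.06 ± 0.17 (SE), adjusted p = 0.00154 at IM24h and -1.31 ± 0.13 (SE), adjusted p = 1.43e-05 at IM72h.

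Adipocyte markers moved with these genes in the ME. The summed level of 5 adipocyte markers was 300.2 to 424 CPM in naïve ME, 239.8 to 519.6 CPM at IM3h, 25.1 to 59.9 CPM at IM24h and 40.5 to 174 CPM at IM72h. Of these markers, 0 of 5 were called at IM3h by edgeR or DESeq2 or at an unadjusted p under 0.05, and 5 of 5 were lower at IM24h and at IM72h, with medians of -3.28 and -2.34 on the log2 scale. The IM3h library with the highest adipocyte sum, 519.6 CPM, was also the one with the highest *Fasn*, *Acly* and *Scd1*, and it had the highest sum of 5 epithelial markers, 1071 CPM against 373 and 187 CPM. Between IM3h libraries 2 and 3 the order was the reverse. Library 2 had the lower adipocyte sum, 239.8 against 266 CPM, and the higher *Fasn*, *Acly* and *Scd1*. Naïve library 3, with the highest adipocyte sum of its group, had the highest *Fasn* and *Acly* and the lowest *Scd1*. Epithelial markers summed to 113 to 303 CPM in naïve ME, 56.4 to 142 CPM at IM24h and 239.8 to 529 CPM at IM72h. All 5 were negative at IM24h, with a median of -1.34 and 2 called lower, and all 5 were positive at IM72h, with 1 called higher. The part of both cell types in the result was not tested. In bulk samples such as these, fewer cells of a type and less RNA per cell cannot be told apart.

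**Figure D2:**
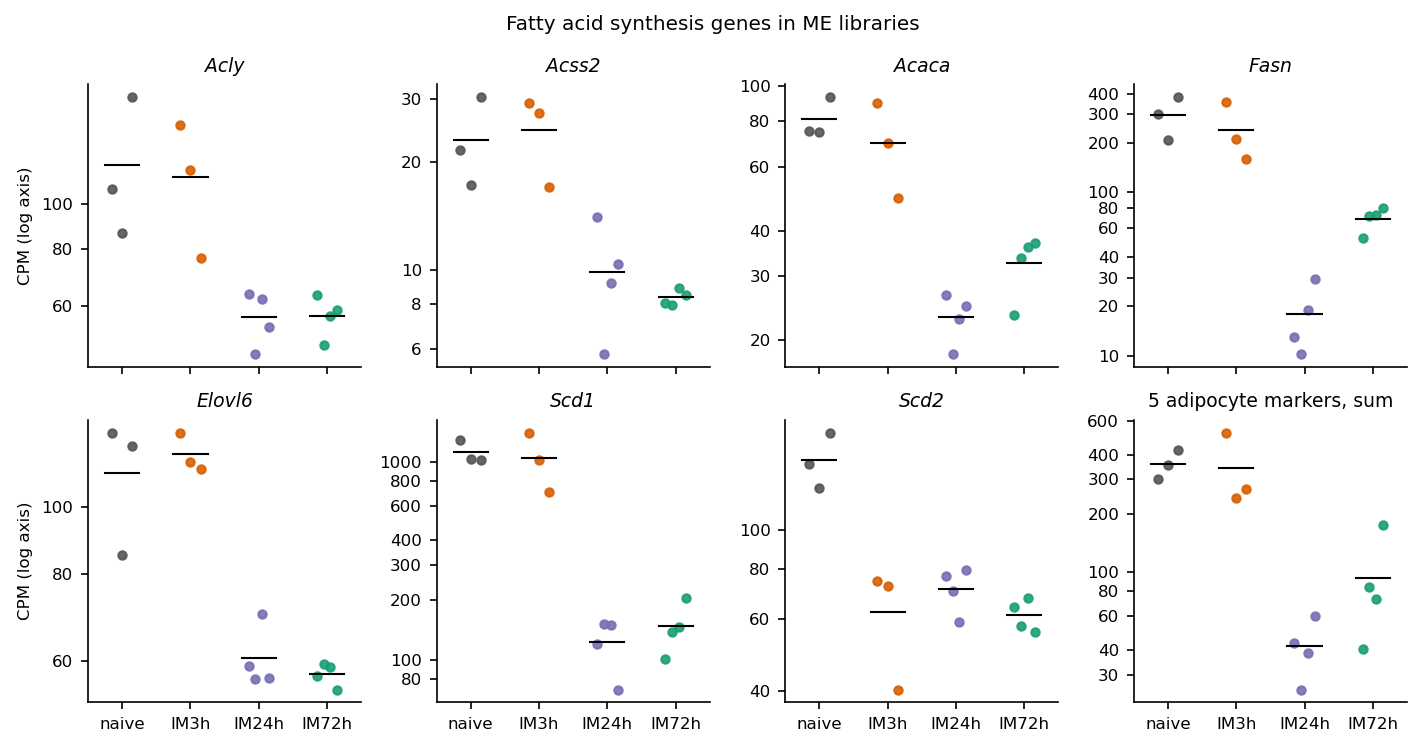
Level in each ME library (points, CPM, log axis) of the 7 fatty acid synthesis genes and, in the last panel, of the 5 adipocyte markers summed, in naïve, IM3h, IM24h and IM72h groups, with the group mean as a bar. *Fasn* lay at 208 to 379 CPM in naïve ME and at 10.2 to 29.3 CPM at IM24h, and the adipocyte sum fell in the same libraries from 300.2 to 424 CPM to 25.1 to 59.9 CPM.

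In *RiboTag* RNA, *Fasn* was the 1 member called lower at IM3h. It had 82.8, 111 and 85.02 CPM in naïve and 31.1, 30.1, 27.7 and 35.7 CPM in IM3h libraries, with no overlap and a log2 fold change of -1.52 ± 0.24 (SE), adjusted p = 0.00174. *Fasn* kept this call whichever library was left out. The other fatty acid genes had no call at IM3h. *Acly* with a log2 fold change of -1.08, adjusted p = 0.0585, *Acss2* with -0.86, adjusted p = 0.283 and *Acaca* with -0.64, adjusted p = 0.147 had all IM3h libraries below the naïve ones. *Scd2*, with -0.71, adjusted p = 0.165, had 208, 232 and 197 CPM in naïve and 136, 64.7, 109.8 and 189 CPM in IM3h libraries, without overlap on this scale and with overlap on that of the pairwise fit, while *Elovl6* and *Scd1* stood at 0.14 and 0.07. Over the 7 genes the median was -0.71, with 5 of 7 negative, or 7 of 7 under scaling by library totals alone.

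The count of lower members at IM3h in *RiboTag* RNA rose from 1 to 3 without IM3h library 4, with *Acly* and *Scd2* added, and to 2 by DESeq2, with *Acly* added. Adipocyte markers were low in this fraction, with a sum of 14.7 to 57.1 CPM in naïve and 11.5 to 12.7 CPM in IM3h libraries, and 1 of 4 tested was lower. Their part in the result was not tested. At IM24h all 7 fatty acid genes had a negative log2 fold change in *RiboTag* RNA, with a median of -1.19 and no call. *Fasn* had 20.8, 4.90, 35.5 and 11.3 CPM there, below every naïve library, with a log2 fold change of -2.35 ± 0.58 (SE), adjusted p = 0.0888. It was called at IM24h by DESeq2, without the filter on low counts and without library 3 of that group. In the same libraries the glial sum was 771 to 897 CPM against 1535 to 1847 CPM in naïve ones and the smooth muscle sum 760.5 to 1982 against 3733 to 5613 CPM, with 2 of the 4 smooth muscle markers lower. Fibroblast, Cajal cell and epithelial sums also lay below all naïve ones and those of neutrophils and monocytes and of proliferating cells above. The part of these cell types in the result was not tested.

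The members that were higher in *RiboTag* RNA at IM3h were mostly genes of the sterol steps. Of the 9 squalene and sterol genes, 5 were higher and 0 lower, the median log2 fold change over the 9 being 1.30, and *Idi1* of the mevalonate steps was higher too. Scaling by library totals alone left 6 of the 9 positive, as before, and 4 called, with *Sc5d* lost, where 6.08% of all genes were called higher. The summed level of the 9 genes was 110.4 to 141 CPM in naïve and 294 to 397 CPM in IM3h *RiboTag* libraries, against 183 to 227 CPM and 196 to 257 CPM in the ME.

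*Sqle*, the squalene epoxidase that commits squalene to sterols (chr15:59315077-59331192, plus strand), had 8.77, 18.5 and 10.6 CPM in naïve and 52.7, 53.6, 53.04 and 75.2 CPM in IM3h *RiboTag* libraries, a log2 fold change of 2.31 ± 0.33 (SE), adjusted p = 0.000927. *Cyp51*, the demethylase that acts first on lanosterol (chr5:4081145-4104746, minus strand), had 14.1, 23.4 and 16.7 CPM and 81.5, 60.7, 54.4 and 71.8 CPM, a log2 fold change of 1.95 ± 0.29 (SE), adjusted p = 0.00122. In both genes every IM3h library lay above every naïve one. *Msmo1*, the methylsterol monooxygenase of the next demethylation (chr8:64718139-64733792, minus strand), had 34.2, 28.2 and 34.4 CPM and 119, 104, 95.5 and 92.5 CPM, a log2 fold change of 1.73 ± 0.24 (SE), adjusted p = 0.000773. *Hsd17b7*, the ketoreductase that works with it (chr1:169949535-169969241, minus strand), had 3.43, 4.18 and 2.49 CPM and 25.8, 27.03, 20.2 and 11.2 CPM, a log2 fold change of 2.70 ± 0.47 (SE), adjusted p = 0.00298. These 4 genes kept their call with each library left out in turn.

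*Idi1*, the isomerase of isopentenyl diphosphate (chr13:8885501-8892451, plus strand), had 7.37, 4.86 and 4.51 CPM in naïve and 37.2, 19.5, 14.1 and 14.5 CPM in IM3h *RiboTag* libraries, a log2 fold change of 1.98 ± 0.47 (SE), adjusted p = 0.0158. The groups did not overlap, and the call was lost without IM3h library 1, naïve library 2 or naïve library 3, with adjusted p-values of 0.0573, 0.0626 and 0.0740. *Sc5d*, the sterol desaturase near the end of the route (chr9:42251595-42264256, minus strand), had 22.5, 15.6 and 25.97 CPM and 64.2, 56.4, 60.8 and 20.1 CPM, a log2 fold change of 1.30 ± 0.40 (SE), adjusted p = 0.0499. Its IM3h library 4 lay within the naïve range, and the call was kept only when that library was left out. Among all libraries left out in turn, the count of higher members ran from 4 to 7.

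The other sterol genes had no call by edgeR or DESeq2. *Fdft1*, the squalene synthase, had a log2 fold change of 0.49, adjusted p = 0.579. *Lss*, which closes the rings of lanosterol, had -0.45, adjusted p = 0.867, *Nsdhl*, the dehydrogenase of the demethylation complex, -1.11, adjusted p = 0.317, and *Dhcr7*, the reductase that yields cholesterol, -0.73, adjusted p = 0.374. Of the mevalonate genes, *Hmgcs1*, whose promoter window is printed above, had 43.2, 107 and 49.6 CPM in naïve and 196, 128, 117 and 79.1 CPM in IM3h *RiboTag* libraries, with overlap and a log2 fold change of 1.02, adjusted p = 0.0957. It was called by DESeq2 (adjusted p = 0.0426) and, by edgeR, without IM3h library 4 or naïve library 2. *Mvk*, *Pmvk*, *Mvd* and *Fdps* lay between -0.62 and 0.06 on the log2 scale without a call. *Insig1*, a sterol sensor and SREBP target, had 16.8, 9.15 and 13.9 CPM and 35.1, 19.7, 19.5 and 38.9 CPM, with no overlap and a log2 fold change of 1.15, adjusted p = 0.0683. It was called by DESeq2 (adjusted p = 0.0424), which called 8 members higher in place of 6. The share of all genes that DESeq2 called higher is not given here, so the 2 counts are not compared.

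**Figure D3:**
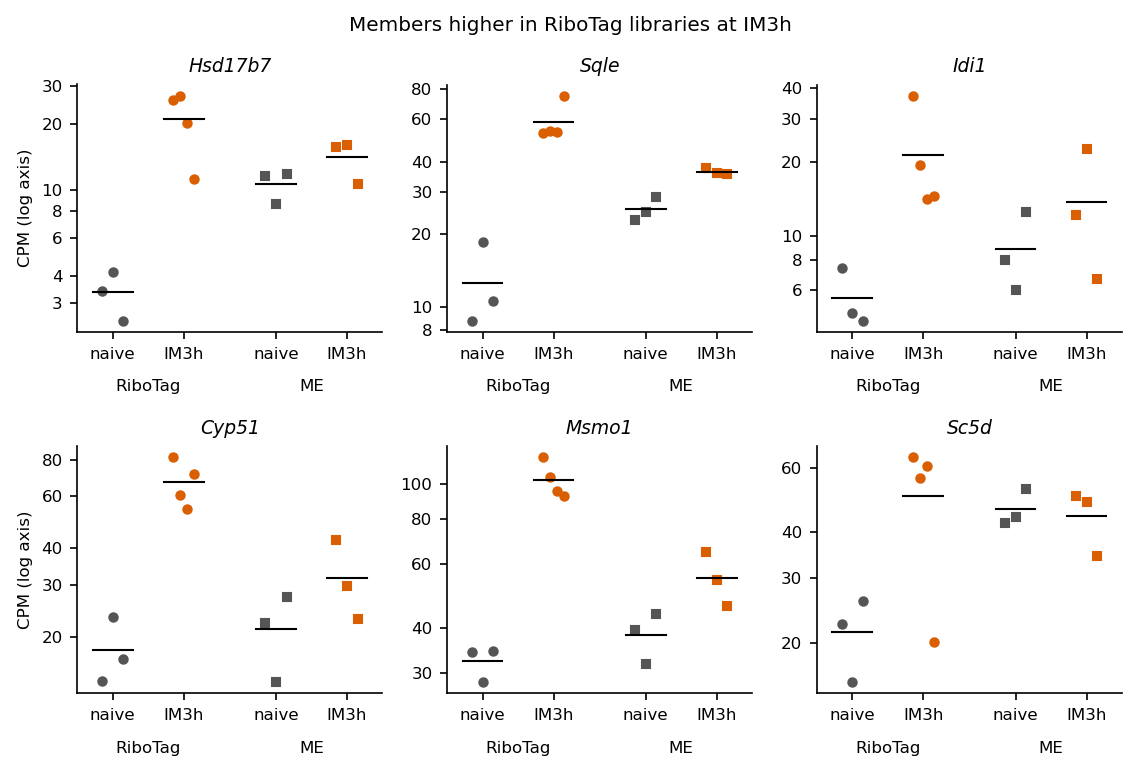
Level in each library (CPM, log axis) of the 6 members called higher in *RiboTag* RNA at IM3h, in naïve and IM3h groups of *RiboTag* RNA (circles) and ME (squares), with the group mean as a bar. *Sqle* lay at 8.77 to 18.5 CPM in naïve and 52.7 to 75.2 CPM in IM3h *RiboTag* libraries, against 22.8 to 28.7 and 35.7 to 37.6 CPM in the ME.

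With all 4 *RiboTag* groups in 1 fit, which shares the spread of the IM24h and IM72h libraries, none of these calls remained. The log2 fold changes there were 1.24 to 2.64, with adjusted p-values of 0.734 and above, and 0 members were called higher or lower. Over all genes that fit called 22 higher and 12 lower, against 1422 and 712 with the 2 groups alone. Markers of several other cell types were lower at IM3h in *RiboTag* RNA. Sums over mesothelial markers were 70.7 to 178 CPM in naïve and 5.54 to 60.6 CPM in IM3h libraries, over smooth muscle markers 3733 to 5613 and 1556 to 3621 CPM, and over fibroblast markers 381 to 470.4 and 143 to 204 CPM. The 2 markers of interstitial cells of Cajal summed to 87.3 to 122 and 23.8 to 47.7 CPM, with 1 of them lower. Glial markers summed to 1535 to 1847 CPM in naïve libraries. At IM3h they summed to 1283 to 1493 CPM in libraries 1 to 3, below all naïve ones, and to 2790.3 CPM in library 4. Of the 5 glial markers 2 were lower and 1 higher, *Gfap*, by 2.26 on the log2 scale. The 4 neuronal markers summed to 363 to 729.6 CPM in naïve and 464 to 1079 CPM in IM3h libraries, all 4 were positive, with a median of 0.42, and 1 was called higher. Their part in the result was not tested.

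In the ME at IM3h, 2 of the same genes were higher, by less. *Sqle* had 22.8, 24.8 and 28.7 CPM in naïve and 37.6, 36.01 and 35.7 CPM in IM3h ME libraries, a log2 fold change of 0.57 ± 0.14 (SE), adjusted p = 0.0124. *Msmo1* had 39.5, 31.6 and 43.6 CPM and 64.96, 54.2 and 45.9 CPM, a log2 fold change of 0.57 ± 0.17 (SE), adjusted p = 0.0268. The groups did not overlap for either gene. The 2 calls were lost with library totals alone and with all 4 ME groups in 1 fit, both were lost without naïve library 1, and that of *Msmo1* also without naïve library 2 or IM3h library 1 or 2, with adjusted p-values of 0.0736 to 0.0927. *Cyp51* stood at 0.62, adjusted p = 0.107 and *Hsd17b7* at 0.45, adjusted p = 0.159 without a call. The 3 members lower at this time were *Srebf1*, *Scd2* and *Mvk*. In the same ME libraries mesothelial markers summed to 1.33 to 10.7 CPM against 81.7 to 117 CPM in naïve ME and fibroblast markers to 712 to 787 against 1438 to 1539.7 CPM, with 3 of 3 lower in each list, and neutrophil and monocyte markers to 32.3 to 44.6 against 9.91 to 11.7 CPM, with 3 of 3 tested higher. Sums for interstitial cells of Cajal were 152 to 157 against 212 to 223 CPM, with 2 of 2 lower, and for macrophages 53.4 to 61.8 against 79.9 to 86.7 CPM, with 2 lower and 1 higher. Smooth muscle and neuronal sums also lay below all naïve ones and the endothelial sum above. The part of these cell types in the results at IM3h was not tested.

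The difference in response between the fractions was tested as an interaction over the naïve and IM3h libraries. It was higher in *RiboTag* RNA for 3 members, against 0.959% of all 17617 genes tested, and lower for 0 by edgeR and by DESeq2, against 0.698%. At an unadjusted p under 0.05 it was lower for 1 (*Fasn*, -1.18, adjusted p = 0.149), against 6.31% of all genes. The interaction on the log2 scale was 2.33 ± 0.52 (SE), adjusted p = 0.0362 for *Hsd17b7*, 1.84 ± 0.36 (SE), adjusted p = 0.0206 for *Sqle* and 1.24 ± 0.29 (SE), adjusted p = 0.0416 for *Msmo1*. For *Cyp51* it was 1.42, adjusted p = 0.109, for *Insig1* 1.65, adjusted p = 0.118, for *Sc5d* 1.39, adjusted p = 0.165, for *Idi1* 1.40, adjusted p = 0.348 and for *Hmgcs1* 1.02, adjusted p = 0.301, none of which was called. *Sqle* kept the call without any 1 of the *RiboTag* libraries, while *Hsd17b7* and *Msmo1* lost it in most fits that left out 1 library. The count of 3 fell to 0 without ME IM3h library 1, 2 or 3 or ME naïve library 2 or 3, rose to 4 without *RiboTag* IM3h library 4, and was 1 with library totals alone, where 0.67% of all genes were called higher. The fractions came from different mouse lines.

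In the ME, the mevalonate and sterol genes split at IM72h. Of these 15 genes, 4 were higher (*Mvk*, *Cyp51*, *Msmo1*, *Dhcr7*) and 7 lower (*Hmgcs1*, *Fdps*, *Fdft1*, *Sqle*, *Lss*, *Nsdhl*, *Sc5d*) than in naïve ME, where 29.3% of all genes were higher and 28.3% lower, so the share of higher genes lies near that of all genes. With library totals alone *Fdft1*, *Fdps* and *Sc5d* stood at 0.26, 0.014 and 0.046, above 0 and below the median of all genes on that scale, 0.62. At IM24h, 3 were lower (*Hmgcs1*, *Mvd*, *Fdps*) and 0 higher, with 3 (*Idi1*, *Msmo1*, *Hsd17b7*) higher at an unadjusted p under 0.05. On library totals alone the 9 squalene and sterol genes had a median of 0.69 at IM24h and 0.26 at IM72h, where the median of all genes was 0.66 and 0.62, against 0.08 and -0.35 as tested, where it was 0.02 at both times. The family thus lay near the median of all genes at IM24h and below it at IM72h. Since a change of scale moves all genes by nearly the same amount, the second scale adds no test of this.

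*Hmgcs1* had 105, 109.6 and 127 CPM in naïve ME, 125, 119.5 and 107 CPM at IM3h, 91.7, 69.4, 72.4 and 56.5 CPM at IM24h and 39.7, 47.6, 51.2 and 53.6 CPM at IM72h. The IM24h libraries lay below all naïve and IM3h ones, and the IM72h libraries below all of IM24h. The log2 fold change against naïve ME was -0.65 ± 0.18 (SE), adjusted p = 0.0204 at IM24h and -1.27 ± 0.13 (SE), adjusted p = 1.62e-05 at IM72h, and from IM24h to IM72h, in 1 line, -0.63 ± 0.17 (SE), adjusted p = 0.0128. The call at IM24h was lost without any 1 of the naïve libraries or without IM24h library 3, with adjusted p-values of 0.0508 to 0.1, and with library totals alone, where the change was -0.017 (adjusted p = 0.958) against 0.66 over all genes. *Sqle* had 44.1, 21.9, 35.7 and 18.8 CPM at IM24h and 14.6, 15.9, 16.98 and 17.9 CPM at IM72h. The spread at IM24h was wide, and all IM72h libraries lay below all others, with -0.67 ± 0.14 against naïve ME (adjusted p = 0.00177) and -0.92 ± 0.25 (SE), adjusted p = 0.015 against IM24h.

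*Dhcr7*, which catalyses the last step (chr7:143823145-143848410, plus strand), had 6.53, 7.32 and 7.38 CPM in naïve ME, 4.80, 12.2, 6.47 and 7.46 CPM at IM24h and 13.95, 14.8, 17.1 and 18.01 CPM at IM72h. The IM72h libraries lay above all others, with a log2 fold change of 1.15 ± 0.17 (SE), adjusted p = 0.000195 against naïve ME and 1.01 ± 0.28 (SE), adjusted p = 0.0146 against IM24h. *Cyp51* had 22.2, 13.99 and 27.4 CPM in naïve ME, 31.3, 24.02, 24.9 and 10.2 CPM at IM24h and 42.2, 48.02, 49.1 and 37.1 CPM at IM72h. It was higher at IM72h by 1.003 ± 0.20 (SE), adjusted p = 0.00131 against naïve ME and by 0.92 ± 0.27 (SE), adjusted p = 0.0211 against IM24h, and the second call was lost without IM72h library 2 or 3. *Msmo1* at IM72h had 53.1, 56.7, 61.6 and 47.97 CPM, a log2 fold change of 0.48 ± 0.14 (SE), adjusted p = 0.0117.

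The kinase and decarboxylase of the mevalonate steps were also higher at IM72h than at IM24h. *Mvk*, mevalonate kinase, had 13.3, 16.1 and 9.81 CPM in naïve ME, 6.48, 6.79 and 5.65 CPM at IM3h, 9.80, 12.8, 7.92 and 7.004 CPM at IM24h and 19.4, 22.8, 22.2 and 17.7 CPM at IM72h. Against naïve ME it was lower at IM3h (-0.99 ± 0.25 (SE), adjusted p = 0.0132) and higher at IM72h (0.64, adjusted p = 0.0118, or 0.0603 without naïve library 3), and against IM24h it was higher by 1.09 ± 0.22 (SE), adjusted p = 0.00256. *Mvd*, the decarboxylase that forms isopentenyl diphosphate, had 10.8, 10.1 and 13.1 CPM in naïve ME, 5.18, 5.30, 4.92 and 4.36 CPM at IM24h and 12.9, 15.8, 15.3 and 12.5 CPM at IM72h. It was lower at IM24h by -1.20 ± 0.28 (SE), adjusted p = 0.00956 and higher at IM72h than at IM24h by 1.48 ± 0.20 (SE), adjusted p = 0.000311. *Pmvk*, phosphomevalonate kinase, had no call in any comparison and a log2 fold change of -0.03 at IM72h.

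Among the other lower genes at IM72h, *Nsdhl* had 16.2, 15.1 and 17.1 CPM in naïve ME and 4.29, 8.28, 6.57 and 10.2 CPM at IM72h, a log2 fold change of -1.16 ± 0.25 (SE), adjusted p = 0.00225. At IM24h its levels of 4.99, 2.001, 7.83 and 20.4 CPM spread from below to above the naïve range. *Fdps*, farnesyl diphosphate synthase, had log2 fold changes of -0.68, adjusted p = 0.037 at IM24h and -0.58, adjusted p = 0.00901 at IM72h, the first lost without any 1 of the naïve libraries or IM24h library 1 or 2. *Lss* stood at -0.74, adjusted p = 0.0134 at IM72h with overlapping groups, lost without naïve library 1 or 3, *Sc5d* at -0.55, adjusted p = 0.00414 and *Fdft1* at -0.35, adjusted p = 0.0305, lost without naïve library 1 or 2 or IM72h library 2 or 3. *Idi1* and *Hsd17b7* had no call in the ME, with 0.68 and 0.26 at IM72h.

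Between IM24h and IM72h in the ME, 5 members were higher at IM72h (*Fasn*, *Mvd*, *Mvk*, *Dhcr7*, *Cyp51*) against 18.6% of all 16281 genes, and 3 were lower (*Stard4*, *Sqle*, *Hmgcs1*) against 19.9%. In none of these 8 did the groups overlap. The members' shares here lie near or below those of all genes. Without IM24h library 4, 5 members were lower.

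**Figure D4:**
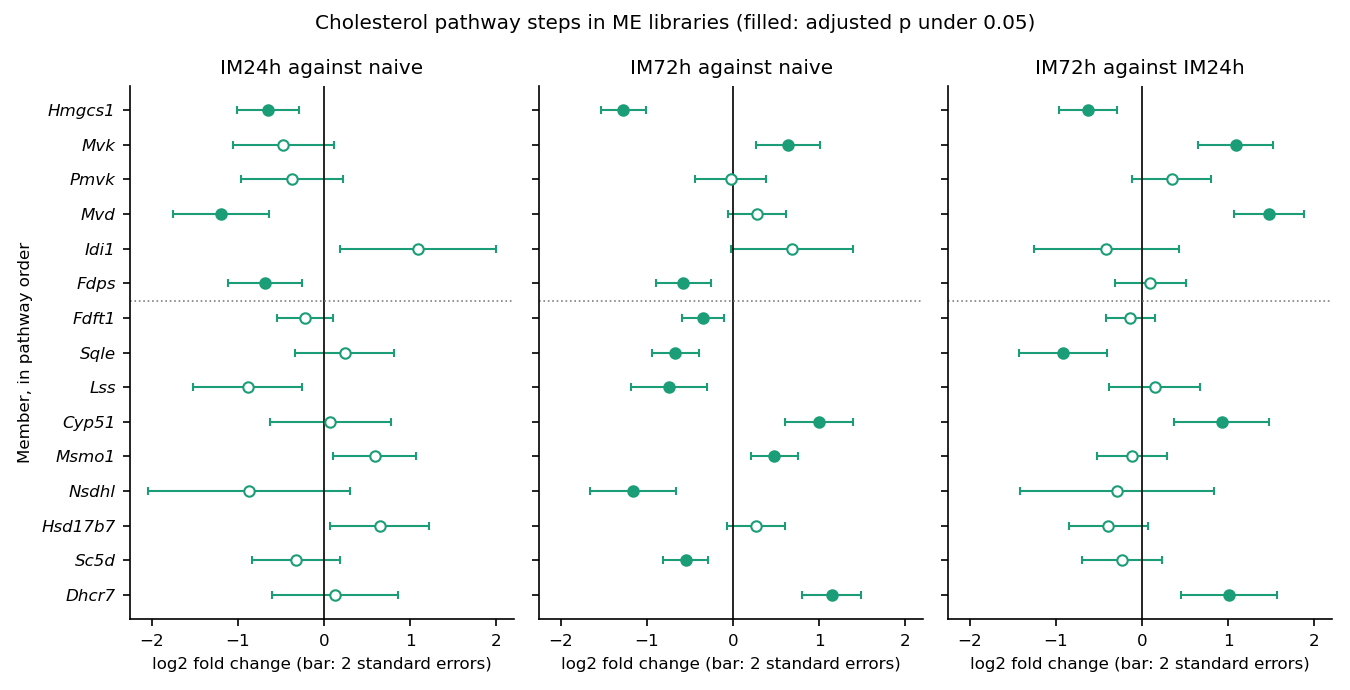
Log2 fold change in the ME of the 15 mevalonate and sterol genes in the order of the route, for IM24h against naïve, IM72h against naïve and IM72h against IM24h (bars: 2 standard errors on each side, filled points: adjusted p under 0.05 by edgeR). At IM72h against naïve ME, *Hmgcs1* stood at -1.27 and *Nsdhl* at -1.16, while *Dhcr7* stood at 1.15 and *Cyp51* at 1.003.

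Markers of other cells also differed between these ME groups. Macrophage sums were 79.9 to 86.7 CPM in naïve ME, 95.2 to 212 at IM24h and 228 to 272 at IM72h. Proliferation markers summed to 7.32 to 14.1, 29.02 to 62.2 and 184 to 232 CPM, and smooth muscle markers to 18279 to 19082, 2709.6 to 8649.8 and 9496 to 16389.7 CPM. Neutrophil and monocyte markers summed to 9.91 to 11.7, 177 to 321 and 85.5 to 117 CPM, and fibroblast markers to 1438 to 1539.7, 675 to 1686 and 2612 to 3039 CPM. Of the 3 fibroblast markers, 1 was called higher at IM72h and 1 was negative, with a median of 0.17 on the log2 scale. Glial markers summed to 111 to 128, 89.2 to 125 and 149 to 294 CPM, with 3 of 5 called higher at IM72h and 1 lower, and those of interstitial cells of Cajal to 212 to 223, 123 to 237 and 77.1 to 92.2 CPM. Mesothelial markers summed to 81.7 to 117, 5.40 to 64.2 and 25.7 to 65.7 CPM, with 3 of 3 lower at IM72h, and endothelial markers to 25.8 to 26.8, 40.4 to 57.4 and 49.6 to 64.1 CPM, with 3 of 3 higher at IM72h. Neuronal markers summed to 386 to 395, 199 to 303 and 301 to 418 CPM, and at IM24h all 4 were negative and 1 was lower. The part of these cell types in the results at IM24h and IM72h was not tested.

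Of the sensors and carriers, *Srebf1* was lower in the ME at IM3h and not called later. It encodes SREBP-1, the factor that favours fatty acid genes (chr11:60199089-60222581, minus strand), and had 30.5, 21.3 and 30.4 CPM in naïve ME and 10.3, 10.9 and 8.48 CPM at IM3h, without overlap and with a log2 fold change of -1.42 ± 0.20 (SE), adjusted p = 0.000411. At IM24h it had 36.8, 37.8, 27.2 and 23.998 CPM and at IM72h 21.4, 22.1, 28.5 and 14.2 CPM, within or near the naïve range, and no call. In *RiboTag* RNA its naïve levels of 3.94, 23.8 and 34.6 CPM and IM3h levels of 40.8, 23.9, 8.61 and 0.280 CPM spread too widely to compare. *Srebf2*, which encodes SREBP-2, the factor that favours sterol genes, had no call against naïve mice in either fraction, with 0.05, -0.06 and -0.19 on the log2 scale in the ME at IM3h, IM24h and IM72h and 0.10 in *RiboTag* RNA at IM3h.

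*Insig1* (chr5:28071363-28078662, plus strand) had 26.1, 27.8 and 54.6 CPM in naïve ME, 29.03, 26.4 and 23.9 CPM at IM3h, 11.3, 7.21, 10.4 and 8.73 CPM at IM24h and 5.72, 8.88, 10.3 and 8.97 CPM at IM72h. All later libraries lay below all naïve and IM3h ones, with a log2 fold change of -1.95 ± 0.29 (SE), adjusted p = 0.00103 at IM24h and -2.13 ± 0.27 (SE), adjusted p = 6.69e-05 at IM72h. Its relative *Insig2* had no call in the ME and stood at -0.14 at IM72h. *Stard4*, a cytosolic sterol carrier, had 11.7, 20.2 and 13.4 CPM in naïve ME, 19.6, 23.1, 18.1 and 11.3 CPM at IM24h and 7.98, 10.1, 10.4 and 7.61 CPM at IM72h. It was lower at IM72h by -0.76 ± 0.22 (SE), adjusted p = 0.0113 against naïve ME and by -1.04 ± 0.24 (SE), adjusted p = 0.00599 against IM24h, the first call being lost without naïve library 2 (adjusted p = 0.0549). On library totals alone 1 of the 5 sensing and carriage genes was lower at IM72h in place of 2, and their median was 0.198, below the 0.62 of all genes on that scale.

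The efflux pumps showed 1 call, while with library totals alone both were higher in the ME at IM24h and at IM72h, with medians of 1.20 and 1.10, where 38.5% and 51.3% of all genes were higher. *Abcg1*, which exports cholesterol to HDL, had 6.53, 6.03 and 6.17 CPM in naïve ME and 13.2, 11.7, 12.4 and 8.26 CPM at IM72h, without overlap and with a log2 fold change of 0.83 ± 0.21 (SE), adjusted p = 0.00543. *Abca1*, which loads cholesterol on apolipoproteins, had 22.4, 17.005 and 25.8 CPM in naïve ME and 19.9, 26.02, 30.1 and 53.7 CPM at IM24h, with overlap and a log2 fold change of 0.57, adjusted p = 0.219. In *RiboTag* RNA at IM3h *Abca1* stood at -0.28 and *Abcg1* at 0.32 without a call.

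Naïve *RiboTag* RNA differed from naïve ME in 7 members, 2 of them higher against 13.4% of all 14753 genes and 5 lower against 12.7%. *Scd1* had 135, 247 and 232 CPM in naïve *RiboTag* RNA against 1292, 1034 and 1014 CPM in naïve ME on the scale of each fraction, a log2 difference of -2.09 ± 0.24 (SE), adjusted p = 0.000635. *Elovl6* (-1.72, adjusted p = 0.00839), *Insig2* (-1.499, adjusted p = 0.0244), *Fasn* (-1.32, adjusted p = 0.00491) and *Sc5d* (-0.76, adjusted p = 0.0452) were lower as well. *Srebf2* (1.03, adjusted p = 0.00315) and *Scd2* (0.87, adjusted p = 0.00709) were higher in the pulldown. So the 2 desaturase genes lay on opposite sides, *Scd1* with the ME and *Scd2* with the glial fraction.

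Adipocyte markers were also lower in the naïve pulldown, 4 of 4 tested, with a median of -3.27 and sums of 14.7 to 57.1 CPM against 300.2 to 424 CPM, and their part was not tested. With library totals alone, where the median of all genes shifted to 0.72, 8 members were higher against 34.9% of all genes and 1 lower against 3.08%, and of the 7 called members *Scd1*, *Scd2* and *Srebf2* kept their call. The number of lower members was 10 without naïve *RiboTag* library 2 and 3 without naïve ME library 1 or 3, where *Insig2* and *Sc5d* lost their call. The call of *Scd2* was lost without naïve ME library 1 (adjusted p = 0.0547), that of *Insig2* also without naïve *RiboTag* library 3 and that of *Sc5d* without naïve ME library 2. The 2 fractions here come from different mouse lines.

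In *RiboTag* RNA at IM24h and IM72h few counts were left for the members. The number of members at 3 counts or fewer was 0 in each naïve library and 0 to 2 at IM3h. It was 0 to 12 at IM24h and 11 to 18 at IM72h, where 5 to 14 members were at 0. A count of 3 stood for 1.32 to 2.88 CPM in the IM72h libraries and for 0.339 to 0.381 CPM in the naïve ones. Levels of single members at IM72h jumped between 0 and high values, as for *Sc5d* with 0, 62.02, 0 and 0 CPM and *Scd1* with 293, 344, 0.960 and 123 CPM. Levels at or under the floor of 3 counts cannot be told from 0.

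The count of 4 members called lower at IM72h lies near the share of all genes, 15.1%. Of these members, 3 (*Fdft1*, *Insig1*, *Nsdhl*) had 0 counts in all 4 libraries. They passed the filter on low counts only through the naïve group, where they were higher. *Fdft1* had 75 to 200 counts in naïve libraries and was at least 7.79-fold lower, the mean of the naïve levels over the mean floor of 3 counts per library (adjusted p = 0.0361 by edgeR). *Insig1* had 81 to 132 counts in naïve libraries and was at least 7.10-fold lower (adjusted p = 0.0328), and all naïve levels of both genes lay above the highest floor, 2.88 CPM. *Nsdhl* had 2.29, 15.9 and 12.2 CPM in naïve libraries (adjusted p = 0.0309), the first below that floor, so that no fold is given. Such floors cover counting error only. *Hmgcs1* had 43.2, 107 and 49.6 CPM in naïve and 0.475, 0.880, 0.960 and 7.39 CPM in IM72h libraries, and was lower with an adjusted p of 0.0378. *Srebf1*, with 31 to 292 counts in naïve libraries and at most 2 at IM72h, had no call by edgeR (adjusted p = 0.0726) and was lower by DESeq2 (adjusted p = 0.00304).

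These calls depended on single libraries. The count of lower members at IM72h was 0 without naïve library 1 or 3, where 1639 of 15030 and 1245 of 14776 genes were lower, and 1 without naïve library 2, where 1367 of 14742 were. It was 6 without IM72h library 3, where 2601 of 13317 genes were lower, and 10 without IM72h library 2, the one low in glial markers, where 3613 of 13290 were. With no filter on low counts it was 0, where 16 of 22119 genes were lower. The median log2 fold change of the members was -0.82, also with the 4 members at the floor in every IM72h library set to the mean floor, against -0.40 over all genes. The share of counts that overlap rRNA was highest in the same libraries, as given above, and with the 3 genes left out 3 of the 4 calls were kept, while *Nsdhl* did not pass the filter on low counts. Adipocyte markers summed to 14.7 to 57.1 CPM in naïve and 0.475 to 118 CPM in IM72h *RiboTag* libraries. Of these, *Adipoq* and *Cidec* were at 0 in all 4 IM72h libraries, and the 2 markers tested were positive, at a median of 1.38, without a call. Proliferation markers summed to 106 to 288 CPM at IM72h against 13.8 to 22.2 CPM in naïve libraries, with 1 of 2 tested higher. Glial markers summed to 140.3 to 1453 against 1535 to 1847 CPM, with 1 of 5 lower. Cajal cell and mesothelial sums also lay below all naïve ones and the neutrophil and monocyte sum above. The part of these cell types in the result was not tested.

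**Figure D5:**
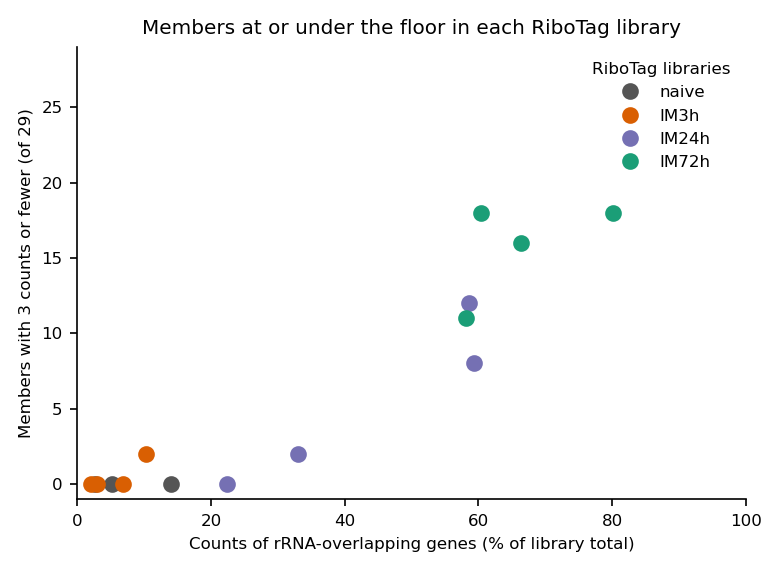
Number of the 29 members with 3 counts or fewer (vertical axis) against the percentage of counts that overlap rRNA (horizontal axis), 1 point for each *RiboTag* library, by group. The 4 IM72h libraries, at 58.1% to 80.2%, had 11 to 18 such members, and the 3 naïve libraries, at 2.69% to 14.0%, had 0.

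A list of 26 further genes of sterol and fatty acid metabolism was read beside the members. Of these, 4 rose and 4 fell in the ME at IM3h. Calls at IM24h numbered 5 up and 7 down, and at IM72h 11 up and 6 down, or 13 and 4 and then 17 and 4 with library totals alone, where 38.5% and 4.41% and then 51.3% and 11.8% of all genes were called. Among all genes 19.3% rose and 13.4% fell by IM3h, and the counts of this time lie near these shares. By IM24h 15.6% rose and 13.4% fell, and by IM72h 29.3% rose and 28.3% fell. *Ch25h*, which makes 25-hydroxycholesterol, had 0.242, 0 and 0.605 CPM in naïve ME, 9.72, 16.4 and 13.1 CPM at IM3h, 4.05, 12.1, 5.74 and 7.23 CPM at IM24h and 2.44, 1.73, 1.36 and 0.975 CPM at IM72h. It rose at IM3h by 5.30 ± 0.51 (SE), adjusted p = 4.05e-05, at IM24h by 4.46, adjusted p = 0.00196 and at IM72h by 2.25, adjusted p = 0.012, fitted values that rest on 0 to 5 counts in the naïve libraries. *Elovl1*, an elongase of very long chains, rose at IM3h by 1.63 ± 0.12 (SE), adjusted p = 7.45e-06 and at IM72h by 1.56, adjusted p = 3.17e-06. The desaturases of polyunsaturated fatty acids fell at IM3h and IM24h, *Fads2* by -1.20 and -1.48 and *Fads1* by -1.10 and -1.56. At IM72h *Fads2* (-0.31, adjusted p = 0.1) and *Fads1* (-0.24, adjusted p = 0.0756) had no call against naïve ME. *Acacb*, the second acetyl-CoA carboxylase, fell by -2.74 ± 0.50 (SE), adjusted p = 0.00291 at IM24h.

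At IM72h in the ME, *Lbr*, a sterol reductase of the nuclear envelope, was lower by -2.11 ± 0.34 (SE), adjusted p = 0.000368, and *Mylip*, a ligase that marks lipoprotein receptors for degradation, was lower by -1.87 ± 0.20 (SE), adjusted p = 2.2e-05 after it had been higher by 1.11, adjusted p = 0.00212 at IM3h. Between IM24h and IM72h, 10 of the 26 were higher against 18.6% of all genes and 5 lower against 19.9%, the latter share near that of all genes. Among the called genes were *Lbr* (-3.30, adjusted p = 0.000226), *Mylip* (-2.26, adjusted p = 3.14e-05), *Ch25h* (-2.20, adjusted p = 0.00249) and *Tm7sf2*, a sterol reductase (2.14, adjusted p = 0.0118). In *RiboTag* RNA at IM3h, 0 of 25 were higher by edgeR and by DESeq2 against 8.86% of all genes, with 3 at an unadjusted p under 0.05, which 15.6% of all genes passed, and 3 were lower against 4.44%. *Elovl5*, an elongase of polyunsaturated chains, fell by -1.71 ± 0.39 (SE), adjusted p = 0.0134, *Fads2* by -1.58 ± 0.27 (SE), adjusted p = 0.00248 and *Fads1* by -0.94, adjusted p = 0.0405. The called sterol genes were higher in the same comparison in which these fatty acid genes were lower.

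At IM24h 0 of the 25 related genes tested were called in *RiboTag* RNA by edgeR, where 3 were lower at an unadjusted p under 0.05 and 3 by DESeq2. At IM72h 1 was lower, against 15.1% of all genes. It was the sterol-sensing receptor gene *Nr1h3* (adjusted p = 0.00892), with 2.41, 2.26 and 5.93 CPM in naïve libraries and 0 at IM72h, where 3 counts stood for up to 2.88 CPM, so that 2 of the naïve levels lie below the highest floor and no fold is given. *Nr1h3* too passed the filter on low counts only through the naïve group. In naïve *RiboTag* RNA 6 of 25 were higher and 4 lower than in naïve ME, where 13.4% and 12.7% of all genes were, or 11 and 1 with library totals alone. The share of lower genes lies near that of all genes. *Fads2* (2.32, adjusted p = 0.000131), *Scap*, the SREBP escort (2.08, adjusted p = 0.000515), and *Npc1*, the lysosomal cholesterol exporter (1.30, adjusted p = 0.00207), were higher, and *Me1*, a source of NADPH for fatty acid synthesis, was lower (-2.01, adjusted p = 0.00173). The interaction at IM3h was called for 1 of them, *Gpam*, the first enzyme of glycerolipid synthesis (1.4996 ± 0.35 (SE), adjusted p = 0.0424).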

How the data were processed

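RNA of ME lysate (14 libraries) and *RiboTag* pulldown (15 libraries) was sequenced by the authors as 3′ end libraries with single-end reads of 50 bases. Per the labels and the study's methods, reads were trimmed with cutadapt, aligned with STAR to mm10 and quantified in Partek Flow against Ensembl release 99. The authors deposited estimated counts, not scaled for library size, per transcript for each *RiboTag* time point and per gene and per transcript for the ME, listing features with a total of at least 10 counts. Between 31.0% and 67.0% of values in a table were not whole. The strandedness of the counting is not given in the sources used here, so overlapping or antisense genes may share counts. Separate tables of the authors' own comparisons hold group means, fold changes and p-values and were not used.

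Each line of a count table is 1 library, and its group was read from the group entry of that line (0 lines without one). The names match no sample label, so groups were mapped as a whole and libraries are numbered by the order of names. The 3 naïve *RiboTag* libraries are the same in all 3 tables, with a largest difference of 0 counts over 38199 shared transcripts, so the *RiboTag* comparisons with naïve mice share their controls, as do those of the ME. No per-sample column was left unused (0).

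Transcripts were summed by symbol and rounded. Groups were compared by edgeR 4.0.16, under R 4.3.3 and limma 3.58.1, using TMM scaling, filterByExpr and the two-sided quasi-likelihood test, with the 2 groups of a comparison in the fit and Benjamini-Hochberg adjustment over all genes tested. A gene was called at an adjusted p under 0.05. SE belongs to the log2 fold change. Levels in CPM use TMM factors over all libraries of a fraction, while fold changes come from each pairwise fit. Alternatives were DESeq2 1.42.0, scaling by library totals, no filter, the 3 rRNA-overlapping genes left out, the ME transcript table, 1 fit of all 4 groups and each library left out in turn. The tests were tried on simulated counts. Positions are those of GENCODE vM21 for mm10.

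The members, the related list and the marker lists were chosen with earlier results of these data known. Named are all 29 members, with values for the called members of largest change (up to 8 in each comparison, and more where the text needs them) and at least 1 value for each other member, and up to 4 called genes of the related list in each comparison. Certain genes of these pathways are not reported here.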

Additional observations from a re-analysis of the deposited data

Results flagged for a closer look

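Levels of called members were searched for a library that stood apart from the rest of its group of 4, which chance finds in about 1 in 20 groups. Of 49 levels tested, 2 had one. *Sqle* in *RiboTag* IM3h library 4 was at 75.2 CPM, where the other 3 were at 52.7 to 53.6 CPM. *Hmgcs1* in *RiboTag* IM72h library 4 was at 7.39 CPM, where the other 3 were at 0.475 to 0.960 CPM. The change at IM3h differed between the fractions, by the interaction test of edgeR, in 3 members. The *RiboTag* log2 change exceeded that of the ME by 1.84 for *Sqle* (adjusted p = 0.0206), by 1.24 for *Msmo1* (adjusted p = 0.0416) and by 2.33 for *Hsd17b7* (adjusted p = 0.0362). The fractions came from different mouse lines, whose part cannot be told apart.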

How the results depend on the processing

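Of 66 called results of single members, 322 of the values under other settings kept direction and call, 41 kept the direction and lost the call and 3 reversed, all with library totals alone in the ME at IM72h (*Fdft1* 0.26, *Fdps* 0.014, *Sc5d* 0.046). With 1 library left out, 395 values kept the call and 81 lost it. Scaling by library totals, which shifts the median of all genes as given above, gave 0 higher and 7 lower members in the ME at IM3h, 9 and 4 at IM24h, 9 and 7 at IM72h, 7 lower in *RiboTag* RNA at IM72h, 8 higher and 1 lower in naïve *RiboTag* RNA against ME, and 1 higher in the interaction. With all 4 groups in 1 fit, 0 members were higher in the ME at IM3h, 2 at IM24h (*Hsd17b7*, *Msmo1*), and 0 were higher and 0 lower in *RiboTag* RNA at IM3h. DESeq2 called 2 lower in *RiboTag* RNA at IM3h and 2 at IM24h. Without the filter, the lower members there were 2 at IM3h, 1 at IM24h and 0 at the last time. The cause of the other differences was not tested. Some counts of members under another setting or without 1 library stand without the share of all genes called there. For these, a shift in calling over all genes cannot be told apart.

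With 1 library left out, the higher and lower counts ran from 0 to 2 and 3 to 4 in the ME at IM3h, 0 to 3 and 7 to 12 at IM24h, 4 to 6 and 14 to 16 at IM72h, and 4 to 6 and 3 to 5 for IM72h against IM24h. In *RiboTag* RNA they ran from 4 to 7 and 1 to 3 at IM3h, 0 to 0 and 0 to 1 at IM24h, and 0 to 0 and 0 to 10 at IM72h. Naïve *RiboTag* RNA against ME gave 1 to 3 and 3 to 10, and the interaction 0 to 4 and 0 to 0. In the ME at IM24h, 3 members were higher without IM24h library 4, and 7 were lower without naïve library 3. No paired analysis was possible because the library names carry no replicate number. In *RiboTag* RNA up to 12 members of an IM24h library and 18 of an IM72h library were at 3 counts or fewer, levels that cannot be told from 0.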
